A study of Mus musculus with 288 samples.

Results

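The autophagy genes examined here were Ulk1, Becn1, Sqstm1, Map1lc3a, Map1lc3b, Gabarapl1, Atg5, Atg7, Atg14 and Tfeb, taken by name from the gene-level tables, which held all 10 of them among 35904 genes. Expression was measured by poly(A) RNA sequencing of 6 tissues (cerebellum, heart, kidney, liver, lung and muscle) of wild type male C57BL/6J mice, 8 weeks old. The mice breathed either room air (normoxia) or intermittent hypoxia (IH), in which oxygen cycled between 21% and 8%, for 7 days. The paper places the exposure in the light, inactive phase, with every mouse in normoxia in the dark, active phase. All of them then spent 2 days in normoxic darkness. Tissues were collected on the last of those days at 8 time points, 3 h apart, with 3 replicates each, which gave 24 libraries per tissue and treatment. IH had therefore ended before any tissue was taken, and both groups share the darkness. Levels are in TPM, a share of all transcripts in the library that corrects for transcript length. The labels give no zero for the time scale. For orientation, in normoxic liver the clock output gene Dbp was highest at 7:30 (128 ± 7.23 TPM, SD, n = 3) and Arntl, a core clock activator, at 1:30 (9.92 ± 2.81 TPM, SD, n = 3).

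Autophagy encloses cytoplasm, protein aggregates or organelles in a closed membrane vesicle, the autophagosome, which fuses with the lysosome so that the contents are degraded. ULK1 is the kinase that starts the process when nutrients or energy are short. BECN1 and ATG14 belong to the lipid kinase complex that marks the site of membrane growth, ATG7 and ATG5 belong to the machinery that attaches ATG8-family proteins to lipid, and MAP1LC3A, MAP1LC3B and GABARAPL1 are such ATG8-family proteins. SQSTM1 (p62) ties ubiquitinated cargo to them and is itself degraded with the cargo, and TFEB is a transcription factor for lysosomal and autophagy genes. In liver, autophagy is known to follow feeding and fasting and the time of day. RNA levels do not measure autophagic flux.

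The genes lie on 8 chromosomes of the GRCm38 build. Ulk1 lies at chr5:110784488-110810097 on the minus strand, Becn1 at chr11:101285952-101302286 and Sqstm1 at chr11:50199366-50210827, both also on the minus strand, and Atg14 at chr14:47540893-47570649, minus strand. On the plus strand are Map1lc3a at chr2:155276297-155278073, Map1lc3b at chr8:121590361-121598760, Gabarapl1 at chr6:129533160-129542346, Atg7 at chr6:114643097-114860614, Atg5 at chr10:44268358-44364291 and Tfeb at chr17:47737030-47792419. Some share transcript sequence with a neighbour: 39.6% of the 31-base words of Becn1 transcripts also occur in transcripts of Cntd1 on the other strand, 25.2% of those of Gabarapl1 in 1700101I11Rik and 16.3% of those of Sqstm1 in Mrnip. The strand setting of the counting step is not given in the sources used here, so reads from these pairs may not have been told apart.

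Promoter windows in the RefSeq table (GRCm38.p6) existed for 8 of the 10 genes. Of those 8, 3 held one of the motifs searched for on both strands. Counted by window, 3 of the 10 windows of these genes did, against 8551 of all 32851 promoter windows. All 3 genes held the E-box CACGTG, the sequence bound by clock activators and by MiT/TFE factors. It occurred in 7.15% of all 32851 promoter windows. No member window held the longer TCACGTGA (0.974% of all windows), the D-box forms TTATGTAA (0.938%) and TTACGTAA (0.119%), the forkhead motif GTAAACA (3.65%), the nuclear receptor core site AGGTCA (16.3%) or TTGCGCAA (0.183%); CACGTG lies within TCACGTGA. The 3 windows with an E-box are printed because each of these genes passed the rhythm test in normoxic liver, as described further on, and that of Gabarapl1 because it had the largest daily change and none of the motifs. Of the other members with a window, Ulk1 and Map1lc3b also passed that rhythm test and Sqstm1 and Tfeb did not. Capitals mark CACGTG. They run 5′ to 3′ on the gene's strand from 250 bases before the annotated start to 20 bases after it, at chr6:114670846-114671115 (plus strand), chr10:44268089-44268358 (plus), chr14:47568415-47568684 (minus) and chr6:129532942-129533211 (plus). The RefSeq starts used for Atg7, Atg14 and Gabarapl1 lie inside the genes as GENCODE draws them. That of Atg7 lies far inside, since the gene begins at 114643097 and the window at 114670846. The bases after the start were found in 0 transcripts for Atg7 and Atg5, in 2 for Atg14 and in 1 for Gabarapl1. Whether transcription begins at these starts was not tested.
Atg7: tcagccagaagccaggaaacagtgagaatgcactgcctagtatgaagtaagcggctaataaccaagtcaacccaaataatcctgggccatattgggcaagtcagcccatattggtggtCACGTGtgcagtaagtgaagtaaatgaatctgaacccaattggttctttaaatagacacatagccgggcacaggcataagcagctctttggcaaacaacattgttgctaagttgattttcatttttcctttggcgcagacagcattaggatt
Atg5: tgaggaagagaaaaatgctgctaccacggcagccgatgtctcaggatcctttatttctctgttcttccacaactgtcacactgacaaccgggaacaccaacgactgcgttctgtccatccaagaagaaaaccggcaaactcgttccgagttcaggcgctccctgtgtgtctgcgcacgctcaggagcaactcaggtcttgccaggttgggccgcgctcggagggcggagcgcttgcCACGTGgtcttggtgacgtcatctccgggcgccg
Atg14: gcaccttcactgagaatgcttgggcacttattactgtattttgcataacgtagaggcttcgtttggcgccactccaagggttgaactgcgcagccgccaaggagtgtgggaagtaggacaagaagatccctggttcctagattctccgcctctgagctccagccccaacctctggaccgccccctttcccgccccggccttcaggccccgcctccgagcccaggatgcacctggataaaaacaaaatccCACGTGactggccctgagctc
Gabarapl1: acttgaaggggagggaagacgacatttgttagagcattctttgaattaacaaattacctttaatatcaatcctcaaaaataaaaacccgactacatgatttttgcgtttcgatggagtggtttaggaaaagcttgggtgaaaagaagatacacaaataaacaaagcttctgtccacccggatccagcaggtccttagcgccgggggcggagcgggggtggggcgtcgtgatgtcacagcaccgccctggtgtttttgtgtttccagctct
The E-box began 132 bases before the start in Atg7, 14 bases before it in Atg5 and 1 base before it in Atg14. A match of letters does not show binding.

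Several libraries did not look like their label. Over lists of 8 marker genes per tissue, the liver IH library of replicate 2 at 13:30 held 2.10% of the liver median for liver markers but 30.8% of the heart median for heart markers, and the cerebellum IH library of replicate 3 at 1:30 held 9.04% and 35.4% in the same way. In that liver library 8 of the 10 genes lay outside the range of the other 23, with Atg5 at 12.4% and Map1lc3a at 293% of their median. In the lung, 7 of 24 IH libraries, all of replicates 1 and 2, had lung markers under 50% of the tissue median (lowest 20.8%), and no normoxia library did. In the liver, 4 of 24 IH libraries did, 3 of replicate 1 and 1 of replicate 2 (medians 72.1% after IH and 105.3% in normoxia), and again no normoxia library. In the cerebellum 2 libraries of each treatment did. The lung library least like the others was that of IH replicate 2 at 1:30 (median r = 0.871, 28257 genes detected). It gave the highest lung IH values of Ulk1 (47.4 TPM) and Tfeb (47.9 TPM). The lowest lung IH values of Map1lc3a (85.9 TPM) and Atg5 (12.9 TPM) were also from it. More genes were also detected in lung after IH (25455 ± 1529 against 22694 ± 737, SD, n = 24 each), and fewer in heart (21447 ± 688 against 25124 ± 1719). Fits without these libraries and with the number of detected genes as a term are given beside the results they change, and the part these differences play was not tested. A lower level in whole tissue may also come from fewer cells of a type or from less RNA per cell, which cannot be told apart here.

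In normoxia, all 10 genes were expressed in every tissue, but the most abundant member differed between tissues. Heart held the most Map1lc3a, kidney the most Gabarapl1 and muscle the most Tfeb, while Ulk1 was close to even. The ratio of the highest to the lowest tissue mean ran from 1.56 for Ulk1 to 10.1 for Gabarapl1. Of 50 pairs of tissues next to each other in these orders, 15 were set apart by means ± SD that did not overlap.

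Among the ATG8-family genes, Gabarapl1 ranged in kidney from 342 over a median of 500.0 to 638 TPM (mean 503 ± 80.8, SD, n = 24). Liver came next (207 ± 98.6), followed by cerebellum (185 ± 73.1), lung (158 ± 17.3), heart (53.8 ± 9.43) and muscle (50.1 ± 8.69). Kidney stood apart from liver and lung from heart, whereas liver, cerebellum and lung overlapped, as did heart and muscle. Map1lc3a showed another order, with heart at 329, 515 and 648 TPM (lowest, median and highest; mean 516 ± 75.1). Muscle (320 ± 40.4), cerebellum (255 ± 71.9), lung (184 ± 7.41), kidney (110 ± 12.9) and liver (62.2 ± 5.55) followed. Heart was apart from muscle, lung from kidney and kidney from liver. Map1lc3b varied less, from 174 ± 23.2 TPM in lung to 66.5 ± 15.0 in liver, and only the step from kidney (110 ± 12) to liver was apart.

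Tfeb, the transcription factor, ranged in muscle from 29.0 over 41.1 to 56.2 TPM (mean 42.8 ± 6.72), above every library of lung, the next in order (21.2 ± 2.95, highest 25.8). Heart (13.7 ± 2.58), kidney (13.2 ± 2.16) and cerebellum (11.8 ± 4.19) were not set apart from each other, and liver was lowest (6.201 ± 0.997). Sqstm1, the cargo receptor, lay between 240 ± 65.6 TPM in liver and 334 ± 59.6 in cerebellum in 5 tissues whose neighbours overlapped, and was apart only in heart, at 135 ± 17.5. Among the genes that start autophagy, Ulk1 means lay between 12.2 ± 3.89 TPM in heart and 19.1 ± 3.20 in lung with no neighbours apart. Becn1 means ran from 46.4 ± 9.80 in heart to 134 ± 18.2 in kidney, also with no neighbours apart, and Atg14 was the least abundant, from 2.99 ± 0.683 in heart to 8.82 ± 1.19 in lung. For conjugation, Atg5 was highest in liver (24.9 ± 3.30) and kidney (22.6 ± 2.64), which overlapped, and lowest in heart (7.37 ± 1.75). Atg7 was highest in lung (17.8 ± 1.79) and liver (16.1 ± 3.23), and liver was apart from cerebellum (7.43 ± 1.75). Scaling the libraries of all tissues to each other kept the highest tissue for 5 of the 10 genes (Becn1, Map1lc3a, Gabarapl1, Atg5 and Tfeb). It moved the highest tissue for Ulk1, Sqstm1, Atg7 and Atg14 to liver and for Map1lc3b to heart. The full order of tissues was kept for 2 of the 10 genes. Lung went from highest to lowest for Ulk1 and Map1lc3b. Scaled Sqstm1 was lowest in lung (162.5 TPM, against 188.4 TPM in heart).

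**Figure D1:**
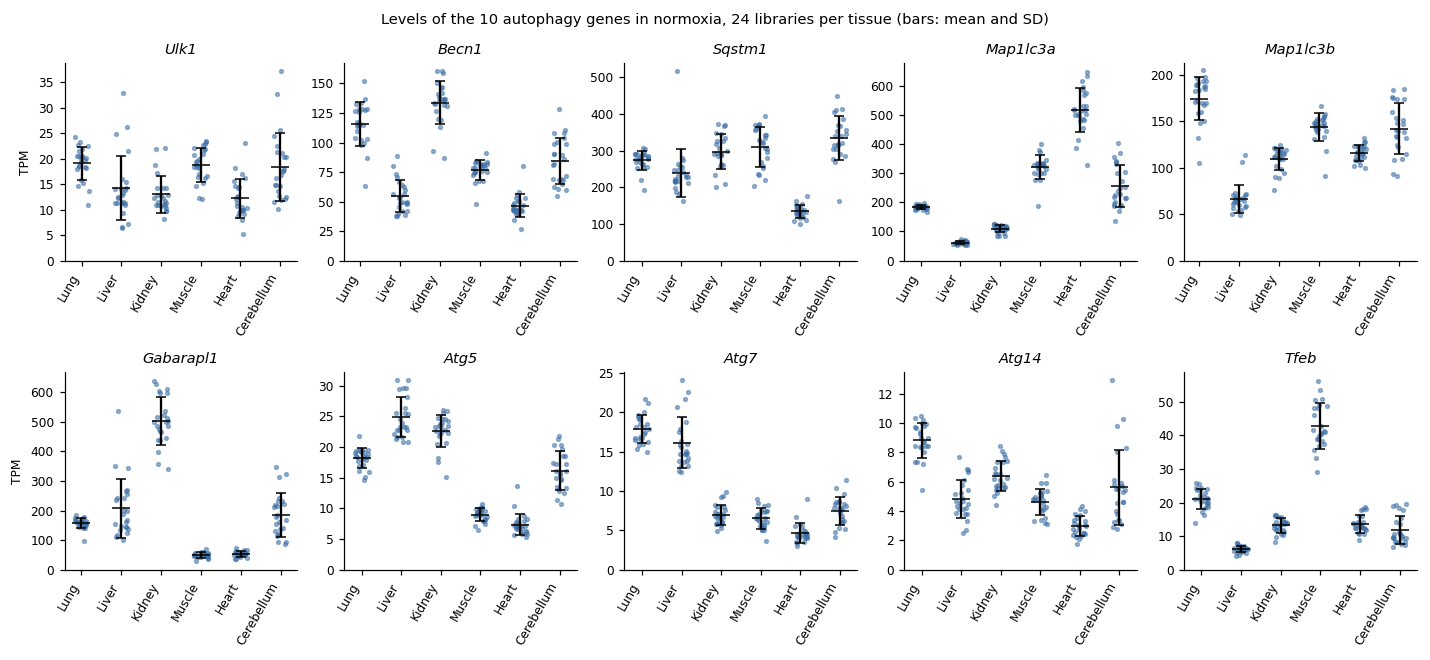
TPM of each gene in normoxia (vertical axes, from 0) in 6 tissues (horizontal axes). Points are the 24 libraries of a tissue and bars the mean and SD. Gabarapl1 in kidney (503 TPM), Map1lc3a in heart (516 TPM) and Tfeb in muscle (42.8 TPM) lie highest in their panels, while the tissues overlap for Ulk1.

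To ask how the 24-hour mean expression of these genes differed after IH, all 24 IH libraries of a tissue were compared with all 24 normoxia libraries. Values were scaled for composition within a tissue and tested on the log2(TPM + 0.5) scale by limma with Benjamini-Hochberg adjustment over all genes tested in the tissue. Fold changes of low genes are understated on this scale. Of 60 gene and tissue pairs, 23 passed an adjusted p of 0.05, with 11 higher and 12 lower after IH. Of all genes tested, 10864 of 15426 passed in lung, 2748 of 11334 in liver and 2552 of 12902 in kidney. In muscle 1330 of 12824 passed, in heart 5780 of 12779 and in cerebellum 2234 of 14892. Their shares in each direction are given with each tissue below. The direction depended on the tissue, with mostly falls in lung, falls and a rise in liver, and rises alone in heart and cerebellum. No pair also reached a 1.5-fold change after scaling, while in TPM as deposited Ulk1 in lung (0.72, adjusted p = 9.89e-13) and Sqstm1 in liver (-0.68, adjusted p = 0.000401) did. Of all genes tested, 9.09% rose and 4.39% fell by that much in lung, 1.1% and 2.55% in liver, 0.411% and 0.372% in kidney, 0.25% and 0.125% in muscle, 1.1% and 1.85% in heart, and 1.48% and 1.16% in cerebellum. In 22 of the 23 pairs, the difference had the same sign within each of the 3 replicate numbers. The pairs were picked on these same libraries, which favours a shared sign, so the count is a description and no separate test. Some values were near 0, such as -0.006 for Map1lc3b in kidney within replicate 1. The matching share among all genes called is not given here.

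**Figure D2:**
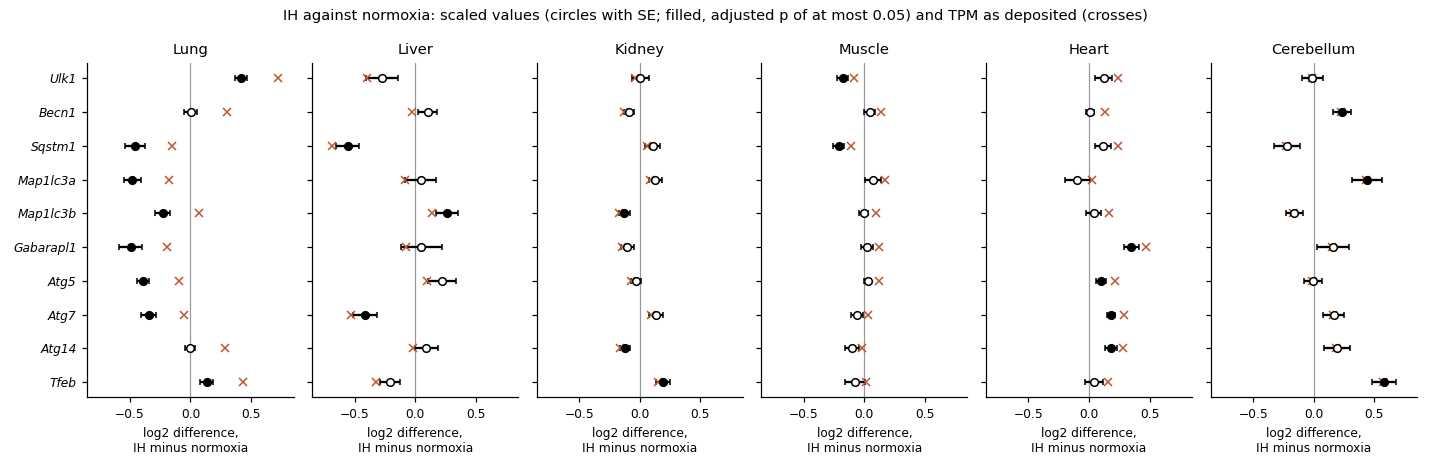
Log2 difference of IH minus normoxia (horizontal axes) of each gene in 6 tissues. Circles are scaled values with their SE, filled where the adjusted p was at most 0.05 (8 in lung, 3 in liver, 3 in kidney, 2 in muscle, 4 in heart and 3 in cerebellum), and crosses are TPM as deposited, which lie to the right of the circles in lung and heart.

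In the lung, 6 genes fell (41.5% of all 15426 genes tested fell) and 2 rose (28.9% rose), so the members followed a tissue in which most genes were called. Ulk1, the initiating kinase, lay at 10.9, 19.8 and 24.1 TPM (lowest, median and highest) in normoxia and at 20.9, 31.5 and 47.4 TPM after IH. In TPM as deposited the groups barely overlapped, with 23 of 24 IH libraries above the highest normoxia library. On that scale the median log2 difference over all lung genes was 0.21, so such counts, also that of Tfeb below, include a shift of the whole tissue. After scaling, Ulk1 rose by 0.42 ± 0.05 on the log2 scale (SE, adjusted p = 5.18e-10). Tfeb lay at 13.9, 21.2 and 25.8 TPM in normoxia and at 21.8, 28.8 and 47.9 TPM after IH, with 17 of 24 IH libraries above all normoxia libraries. Its scaled difference was 0.14 ± 0.05 (adjusted p = 0.0225), which was lost without the libraries low in lung markers (0.08, adjusted p = 0.222).

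The 3 ATG8-family members, both conjugation members and Sqstm1 fell in lung after scaling. Map1lc3a lay at 165, 184 and 198 TPM in normoxia and at 85.9, 177 and 200.9 TPM after IH, so the groups overlapped over most of their range. It fell by 0.48 ± 0.07 on the log2 scale (adjusted p = 1.51e-07), Gabarapl1 by 0.49 ± 0.10 (adjusted p = 1.43e-05) and Map1lc3b by 0.23 ± 0.06 (adjusted p = 0.000888). Atg5 lay at 14.6, 18.5 and 21.9 TPM in normoxia and at 12.9, 16.6 and 21.6 TPM after IH and fell by 0.39 ± 0.05 (adjusted p = 1.59e-09). Atg7 fell by 0.35 ± 0.06 (adjusted p = 4.82e-06) and Sqstm1 by 0.46 ± 0.08 (adjusted p = 4.66e-06). Becn1 (0.00 ± 0.05, adjusted p = 0.971) and Atg14 (-0.01 ± 0.04, adjusted p = 0.89) did not pass.

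These lung calls depended on the scaling. The median log2 difference over all genes was -0.08 with scaling and 0.21 in TPM as deposited. In TPM as deposited, 4 members rose (Ulk1, Becn1, Atg14 and Tfeb) and 1 fell (Map1lc3a), and Map1lc3b turned to 0.07 (adjusted p = 0.279). Relative to the median of all genes, Ulk1 was higher by 0.50 with scaling and by 0.51 without, and Map1lc3a stood at -0.40 and -0.38. With the number of detected genes as a term, Ulk1 remained higher (0.50, adjusted p = 8.89e-07) and Atg5 lower (-0.30, adjusted p = 0.000798), whereas Map1lc3b (0.15, adjusted p = 0.0448) and Atg14 (0.18, adjusted p = 0.00425) now passed as higher and Sqstm1 and Gabarapl1 turned positive without passing (0.12 and 0.15). Tfeb (0.05, adjusted p = 0.613), Map1lc3a (-0.09, adjusted p = 0.439) and Atg7 (-0.05, adjusted p = 0.65) no longer passed with that term. Without the libraries low in lung markers all 6 falls still passed but were smaller, at -0.34 for Atg5, -0.30 for Map1lc3a, -0.25 for Sqstm1, -0.25 for Gabarapl1, -0.22 for Atg7 and -0.10 for Map1lc3b. In replicate 3 alone, which held no library low in lung markers, the falls were -0.49 for Atg5, -0.30 for Map1lc3a, -0.19 for Gabarapl1, -0.10 for Sqstm1, -0.08 for Atg7 and -0.03 for Map1lc3b.

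In the liver, 2 genes fell (13.3% of all genes tested fell) and 1 rose (10.9% rose). Sqstm1, the cargo receptor, lay at 163, 228 and 518 TPM in normoxia and at 54.1, 158 and 272 TPM after IH, and its mean was lower after IH at all 8 time points. It fell by 0.56 ± 0.10 on the log2 scale (adjusted p = 3.64e-05), the largest fall of any member in any tissue. Atg7, the E1-like enzyme of conjugation, lay at 12.4, 14.9 and 24.0 TPM in normoxia and at 3.01, 11.5 and 20.4 TPM after IH and fell by 0.41 ± 0.10 (adjusted p = 0.00178). For each gene the ranges overlapped, with 14 of 24 IH libraries below every normoxia library. Map1lc3b lay at 49.2, 64.1 and 114 TPM in normoxia and at 43.5, 71.5 and 94.3 TPM after IH and rose by 0.27 ± 0.09 (adjusted p = 0.0279). The lowest IH values of Sqstm1, Atg7 and Map1lc3b all came from the library of replicate 2 at 13:30, which held heart transcripts. The counts of 14 include that library.

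The liver differences were uneven over the replicate numbers, and replicate 3 held none of the libraries low in liver markers. Sqstm1 differed by -0.86, -0.67 and -0.17 within replicates 1, 2 and 3, and Atg7 by -0.74, -0.50 and -0.02. Map1lc3b differed by 0.40, 0.48 and -0.12, the only call whose sign was not shared, and in TPM as deposited it did not pass (0.14, adjusted p = 0.23). Without the 4 libraries low in liver markers, Sqstm1 stood at -0.45 (adjusted p = 8.67e-05), Atg7 at -0.28 (adjusted p = 0.00898) and Map1lc3b at 0.22 (adjusted p = 0.0368). Without the library that held heart transcripts, Atg5 was also higher (0.30, adjusted p = 0.00533) and Tfeb lower (-0.25, adjusted p = 0.014).

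In the heart, 4 genes rose (28% of all genes tested rose) and none fell (17.3% fell; at an unadjusted p of 0.05, 0 members fell). Gabarapl1, an ATG8-family protein, lay at 34.9, 53.2 and 74.0 TPM in normoxia and at 51.7, 73.5 and 91.7 TPM after IH. The mean was higher after IH at all 8 time points, and 11 of 24 IH libraries exceeded every normoxia library. It rose by 0.35 ± 0.06 on the log2 scale (adjusted p = 1.86e-05). Atg7 rose by 0.18 ± 0.04 (adjusted p = 6.03e-05), Atg14 by 0.18 ± 0.05 (adjusted p = 0.0027) and Atg5 by 0.10 ± 0.04 (adjusted p = 0.044). Map1lc3a, by far the most abundant member in heart, was at 516 ± 75.1 TPM in normoxia and 522 ± 60.5 TPM after IH (-0.10 ± 0.10, adjusted p = 0.452). In TPM as deposited 6 members rose, and with the number of detected genes as a term none passed, the difference of Gabarapl1 being 0.11 (adjusted p = 0.579). The median log2 difference over all genes was 0.15 in TPM as deposited and 0.04 with scaling. Over the main fit and its alternatives, the number of all genes called in heart ran from 257 to 13030. The number of detected genes itself differed with treatment in heart.

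In the cerebellum, 3 genes rose (9.76% of all genes tested rose) and none fell (5.24% fell; Sqstm1 and Map1lc3b were lower at unadjusted p-values of 0.0424 and 0.0241). Tfeb lay at 6.68, 10.3 and 19.7 TPM in normoxia and at 9.72, 17.8 and 21.4 TPM after IH. Its mean was higher after IH at all 8 time points although the ranges overlapped. Its lowest IH value came from the library of replicate 3 at 1:30, which held heart transcripts. Tfeb rose by 0.58 ± 0.10 on the log2 scale (adjusted p = 6.28e-05), a 1.497-fold change just short of the fold threshold and the largest difference of any member. Map1lc3a lay at 135, 234 and 405 TPM in normoxia and at 203, 344 and 456 TPM after IH and rose by 0.44 ± 0.12 (adjusted p = 0.011). Becn1 rose by 0.23 ± 0.07 (adjusted p = 0.028), which did not pass in TPM as deposited (0.22, adjusted p = 0.286) or with the number of detected genes as a term (0.22, adjusted p = 0.0599), under which Map1lc3b passed as lower (-0.21, adjusted p = 0.0448). Within replicates 1, 2 and 3 Tfeb differed by 0.80, 0.83 and 0.12, and no member passed without replicate 2.

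**Figure D3:**
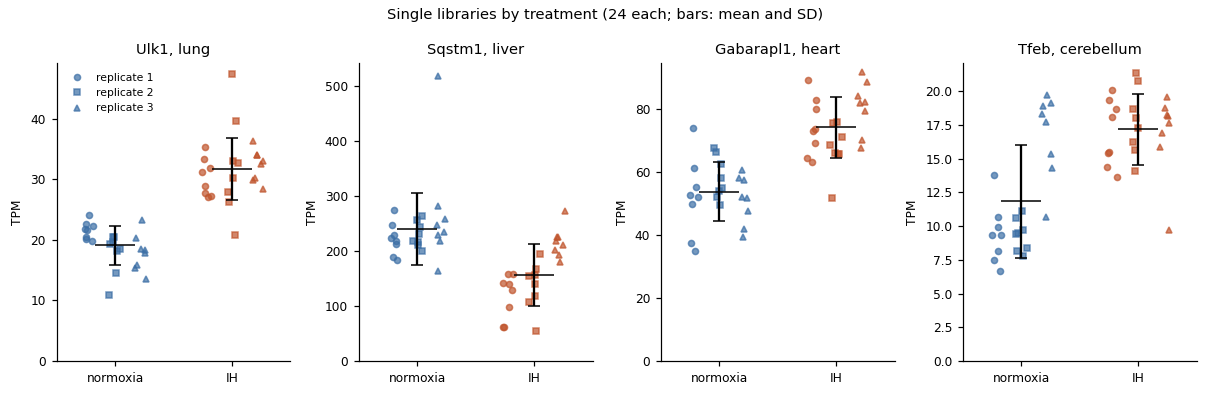
TPM as deposited, not scaled, of single libraries in normoxia and after IH (vertical axes, from 0) for Ulk1 in lung, Sqstm1 in liver, Gabarapl1 in heart and Tfeb in cerebellum, 24 libraries per treatment. Marker shapes are replicate numbers and bars the mean and SD; 23 of 24 IH libraries lie above all normoxia libraries for Ulk1, and in the other panels the groups overlap.

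In kidney and muscle the differences were small. In kidney 1 gene rose (8.25% of all genes tested rose) and 2 fell (11.5% fell). Tfeb lay at 8.41, 13.52 and 16.4 TPM in normoxia and at 9.46, 14.3 and 24.9 TPM after IH (0.19 ± 0.06, adjusted p = 0.0219). Map1lc3b fell by 0.13 ± 0.05 (adjusted p = 0.0397) and Atg14 by 0.12 ± 0.04 (adjusted p = 0.0425). None of the 3 passed in TPM as deposited, and both falls missed the threshold without the library least like the others, at -0.10 (adjusted p = 0.0541) and -0.12 (adjusted p = 0.055). With the number of detected genes as a term neither fall passed (adjusted p = 0.113 and 0.126), and Sqstm1 (0.19, adjusted p = 0.0106), Map1lc3a (0.18, adjusted p = 0.0196) and Atg7 (0.22, adjusted p = 0.0022) passed as higher. In muscle no gene rose (5.48% rose; at an unadjusted p of 0.05, 0 members rose) and 2 fell (4.89% fell). Sqstm1 lay at 203, 323 and 395 TPM in normoxia and at 219.7, 276 and 355 TPM after IH and fell by 0.21 ± 0.05 (adjusted p = 0.00151). Ulk1 fell by 0.18 ± 0.05 (adjusted p = 0.00633). Neither passed in TPM as deposited, in which Becn1 and Map1lc3a rose instead (0.14 and 0.17).

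**Figure D4:**
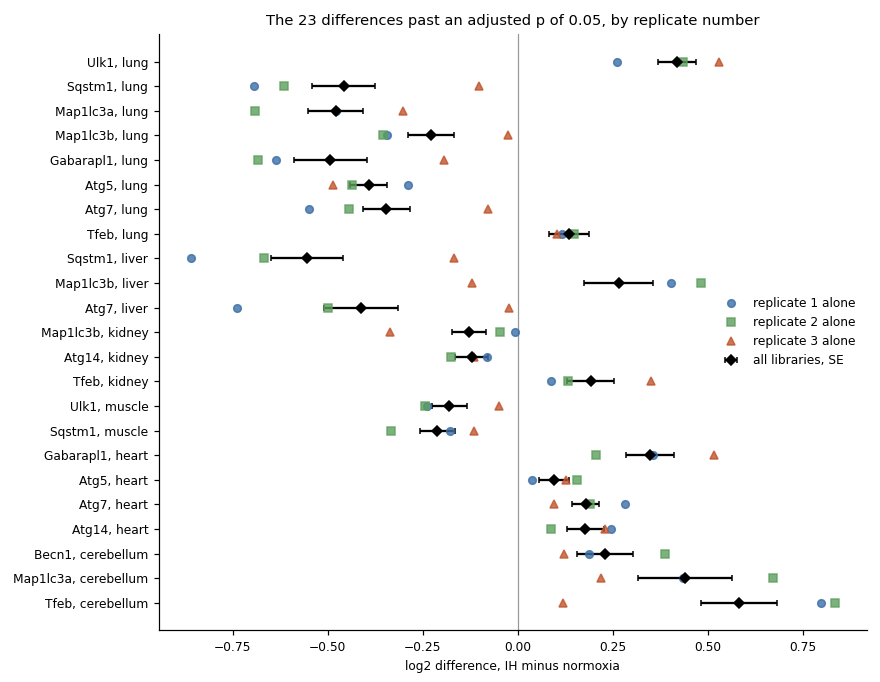
Log2 difference of IH minus normoxia (horizontal axis) for the 23 gene and tissue pairs past an adjusted p of 0.05. Diamonds with SE use all libraries and other symbols 1 replicate number alone (8 libraries per treatment); Map1lc3b in liver is the only pair whose symbols lie on both sides of 0, at -0.12 for replicate 3.

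Whether the effect of IH differed between tissues was tested in 1 fit over the libraries of all 6 tissues. It did for 10 of the 10 genes, as for 80.5% of all 18126 genes tested, so the members did as most genes did. Adjusted p-values ran from 2.61e-12 for Atg7, whose difference was -0.41 in liver and 0.18 in heart, to 0.00457 for Becn1. Ulk1 lay between -0.27 in liver and 0.42 in lung, Sqstm1 between -0.56 in liver and 0.11 in heart, and Gabarapl1 between -0.49 in lung and 0.35 in heart. This fit takes the libraries as independent, although several tissues may come from 1 mouse. With same-numbered libraries taken as 1 mouse, all 10 also passed (largest adjusted p = 0.00206, Becn1). The main fit also assumes 1 spread for all tissues, and in simulated data it made too many calls where the spread differed between tissues. With the spread estimated in each tissue, all 10 also passed (largest adjusted p = 0.0102, Becn1), but that fit too made more false calls than its threshold allows in the same simulated data. In TPM as deposited Atg5 did not pass (adjusted p = 0.0785). With the number of detected genes as a term 7 passed, and Map1lc3a (adjusted p = 0.0894), Gabarapl1 (0.901) and Atg14 (0.128) did not.

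To ask which of these genes followed a daily rhythm, a cosine curve with a 24 h period was fitted to the 24 libraries of each tissue and treatment. The amplitude is the log2 distance from mean to peak. In normoxic liver 7 of 10 genes passed an adjusted p of 0.05 (17.7% of all 11334 genes tested did), in kidney 3 (21%), in lung 2 (9.15%), in muscle 2 (6.38%), and in heart (0.626%) and cerebellum (0%) none. After IH, Gabarapl1 passed in liver (2.63% of all genes) and in kidney (5.74%), and no member did in lung (4.65%), muscle (8.83%), heart (4.17%) or cerebellum (0.0134%). Where none passed, members at an unadjusted p of 0.05 numbered 0 in normoxic heart and 3 in normoxic cerebellum, and after IH 2 in lung, 1 in muscle, 1 in heart and 0 in cerebellum. The rank test called none in any of these 6 groups.

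Gabarapl1 in liver had the largest daily change. In normoxia the 3 libraries at 7:30 read 243.0, 268 and 535 TPM and those at 16:30 read 100.1, 144 and 136 TPM, with no overlap. Its amplitude was 0.69 ± 0.07, a 2.59-fold change from trough to peak, with the peak at 6.06 ± 0.394 h (SE, adjusted p = 6.78e-07). After IH the 3 libraries at 4:30 read 354, 268 and 398 TPM and those at 16:30 read 83.4, 112 and 134 TPM. The amplitude was 0.62 ± 0.13 and the peak fell at 5.56 ± 0.819 h (adjusted p = 0.023). The normoxic rhythm passed under every alternative run, including the rank test (adjusted p = 0.0041). The rhythm after IH passed by the rank test (0.0305) but not in TPM as deposited (0.051) and not without replicate 1 (0.115) or replicate 3 (0.418).

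The other liver rhythms in normoxia were smaller. Ulk1 had an amplitude of 0.39 ± 0.10 and a peak at 9.07 ± 0.975 h (adjusted p = 0.0203), with libraries at 12.9, 24.8 and 32.9 TPM at 7:30 and at 6.47, 6.58 and 13.8 TPM at 22:30. Atg14 (0.27 ± 0.07, peak at 8.95 h, adjusted p = 0.019) and Map1lc3b (0.20 ± 0.05, peak at 8.98 h, adjusted p = 0.012) peaked close to it, and Becn1 later (0.21 ± 0.05, peak at 11.5 h, adjusted p = 0.0195). The conjugation genes lay elsewhere, Atg5 at 0.410 ± 1.08 h (amplitude 0.18 ± 0.05, adjusted p = 0.0401) and Atg7 at 2.57 ± 1.05 h (0.16 ± 0.04, adjusted p = 0.0324). Only Gabarapl1 and Atg5 also passed in TPM as deposited. The normoxia library of replicate 3 at 7:30 stood high for several of them (535 TPM of Gabarapl1, 32.9 of Ulk1 and 518 of Sqstm1), and without replicate 3 only Gabarapl1 and Becn1 of the 7 passed, joined by Sqstm1 and Tfeb (adjusted p = 0.0131 and 0.0272). Without replicate 1 only Gabarapl1 passed, and without replicate 2 Gabarapl1, Map1lc3b and Atg14 did.

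**Figure D5:**
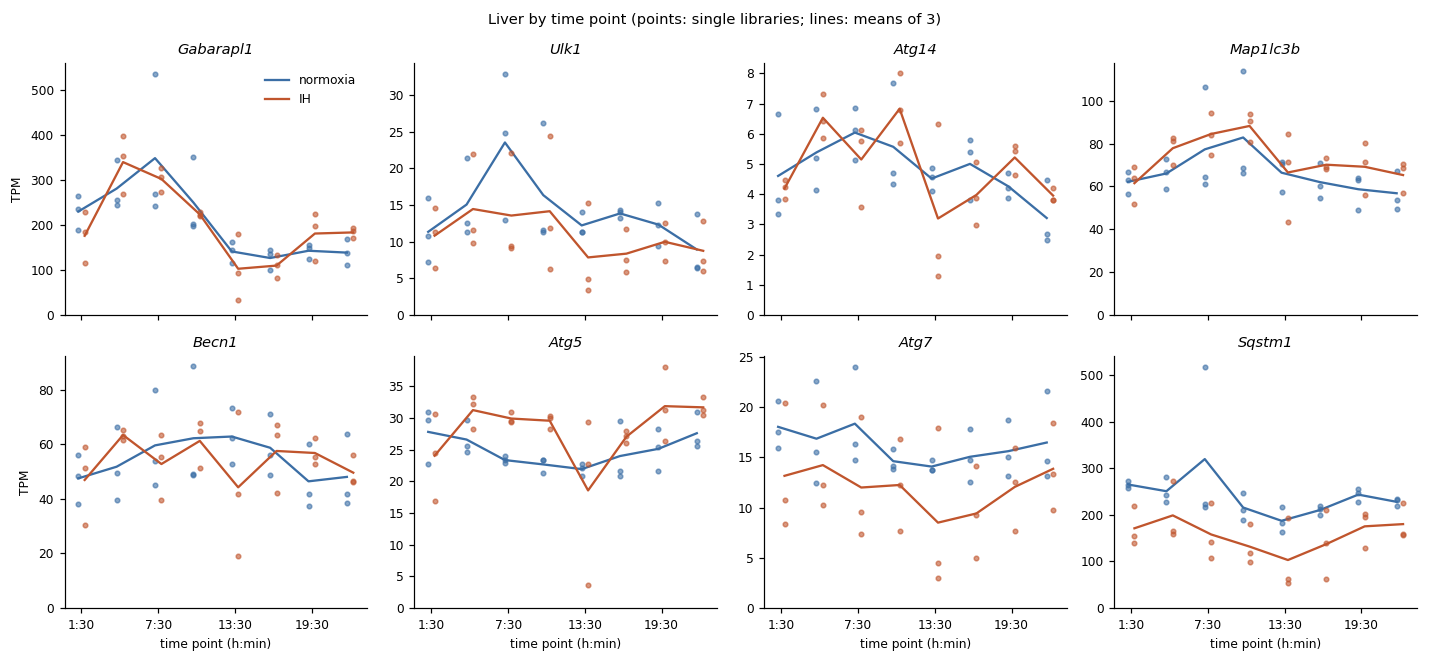
TPM in liver (vertical axes, from 0) by time point (horizontal axes, hours and minutes; treatments shifted apart slightly) for 8 of the genes. Points are single libraries and lines the means of 3; Gabarapl1 falls from 349 TPM at 7:30 to 127 TPM at 16:30 in normoxia, and Sqstm1 lies lower after IH at every time point.

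Outside the liver, members passed in kidney, lung and muscle, with amplitudes of at most 0.24. In normoxic kidney, Gabarapl1 went from 437 ± 70.2 TPM at 19:30 to 613 ± 21.1 TPM at 7:30 (SD, n = 3; peak of the fit at 7.03 ± 0.859 h), and after IH its fitted peak was at 3.48 ± 0.884 h. Ulk1 in kidney peaked at 5.06 ± 0.768 h with an amplitude of 0.24 ± 0.05 (adjusted p = 0.00419), and Becn1 at 15.2 ± 0.903 h (0.15 ± 0.04, adjusted p = 0.0134). No rhythm in kidney passed by the rank test. In normoxic lung, Atg7 peaked at 2.68 ± 0.562 h (0.15 ± 0.02, adjusted p = 0.000386) and Tfeb at 12.6 ± 0.631 h (0.20 ± 0.03, adjusted p = 0.00125), and both also passed by the rank test (0.0491 and 0.037). In normoxic muscle, Gabarapl1 peaked at 9.19 h (0.16 ± 0.03, adjusted p = 0.00892) and Atg14 at 7.79 h (0.20 ± 0.05, adjusted p = 0.0224), and neither passed by the rank test (0.929 and 0.692).

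More members passed in normoxia than after IH, 14 against 2 over the 6 tissues, but the rhythms themselves were not shown to differ. Fewer of all genes also passed after IH in lung (4.65% against 9.15%), liver (2.63% against 17.7%) and kidney (5.74% against 21%). More of all genes did in muscle (8.83% against 6.38%), heart (4.17% against 0.626%) and cerebellum (0.0134% against 0%). The test of the difference passed for 0 of 60 gene and tissue pairs (lowest adjusted p = 0.825) and for no gene at all in any tissue (0% in each). At an unadjusted p of 0.05 it passed for 1 pair, Gabarapl1 in kidney (p = 0.0203, adjusted p = 0.981).

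Beyond these genes, a wider list of 60 autophagy and lysosome genes moved with the tissue as well. In lung 8 rose and 34 fell (28.9% and 41.5% of all genes), with a median log2 difference of -0.20 against -0.08 for all genes. Among 15 lysosomal proteins 12 fell and 1 rose there, with Atp6v1h, a subunit of the proton pump, at 42.1 ± 2.32 TPM in normoxia and 34.3 ± 6.83 TPM after IH (-0.62 ± 0.07), Psap, the precursor of saposins, at -0.62 ± 0.12 and Lamp1, a membrane protein of lysosomes, at -0.58 ± 0.10. Within replicate 3, which held no library low in lung markers, they stood at -0.41, -0.05 and -0.17. The largest rises in lung were those of Tfec, a relative of Tfeb (0.66 ± 0.09), Mcoln1, a calcium channel of lysosomes (0.56 ± 0.06), and Stx17, the syntaxin of autophagosome fusion (0.32 ± 0.07). Within replicates 1, 2 and 3 Stx17 stood at -0.01, 0.33 and 0.59. In TPM as deposited Psap and Lamp1 stood at -0.31 and -0.28 and Mcoln1 at 0.86.

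The heart showed the opposite direction, with 32 of 59 tested genes of the list higher and 2 lower (28% and 17.3% of all genes; median 0.13 against 0.04 for all genes). Of the 15 lysosomal proteins 13 rose, among them the proteases Ctsb, from 107 ± 29.3 to 177 ± 36.6 TPM (0.63 ± 0.07), and Ctsd, from 239 ± 54.3 to 356 ± 65.2 TPM (0.46 ± 0.07), and also Psap (0.43 ± 0.06). Rb1cc1, the scaffold of the ULK complex, fell by 0.21 ± 0.06 and Atg4a, a protease that processes ATG8 proteins, by 0.09 ± 0.03; Atg4a was at 0.03 in TPM as deposited. Fewer genes were detected in heart after IH, and the part of this in the list's counts was not tested.

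In liver 7 of the 60 rose and 16 fell, when 10.9% and 13.3% of all genes did, so the share that rose was near that of all genes. The largest falls were those of Pik3r4, which belongs to the lipid kinase complex with Becn1 (-0.82 ± 0.11), Npc1, a lysosomal cholesterol transporter (-0.76 ± 0.15), and Atg2b, a lipid transfer protein (-0.61 ± 0.10), and all 3 were near or above 0 within replicate 3 (-0.01, 0.19 and 0.11). Fundc1 (0.48 ± 0.09), Atg4d (0.44 ± 0.09) and Tfec (0.43 ± 0.11) rose most, and stood at -0.01, 0.08 and -0.07 within replicate 3. In kidney 6 rose and 10 fell (8.25% and 11.5% of all genes), led by Pik3r4 (0.44 ± 0.06), Npc1 (0.30 ± 0.05) and Rb1cc1 (0.24 ± 0.05) on one side and by the protease Ctsl (-0.41 ± 0.07), Tmem41b (-0.27 ± 0.07) and Stx17 (-0.24 ± 0.05) on the other. In muscle (5.48% and 4.89% of all genes) Rb1cc1 rose (0.29 ± 0.04), and Fundc1 (-0.13 ± 0.04) and Wipi1 (-0.12 ± 0.03) fell. Muscle values in TPM as deposited were 0.39 for Rb1cc1, -0.04 for Fundc1 and -0.02 for Wipi1. In cerebellum (9.76% and 5.24% of all genes) 6 rose, with Atg4d (0.66 ± 0.10), Atg101 (0.47 ± 0.10) and Atg9a (0.39 ± 0.11) first (-0.01, 0.12 and -0.11 within replicate 3), and 5 fell, with Tax1bp1 (-0.30 ± 0.08), Atg4c (-0.26 ± 0.06) and Npc1 (-0.26 ± 0.08) first (-0.05, -0.09 and -0.06 within replicate 3).

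The genes whose pattern over the 96 means of tissue, treatment and time point was most like that of each member were named among 9876 genes expressed in every tissue. The means of a tissue share its level, and each mean rests on 3 libraries. Ulk1 was most like Flcn (r = 0.909), Rbm33 and Ube4b, Becn1 like Ykt6 (r = 0.958), Pes1 and Ttc8, and Atg14 like Rlf (r = 0.932), Seh1l and Parn. Sqstm1 was most like Rars (r = 0.886), Hdgf and Taldo1, and Tfeb like Anapc5 (r = 0.973), Cyb5r1 and Apbb2. Map1lc3a was most like Bzw2 (r = 0.965), Cmss1 and Rcan2, Map1lc3b like Ppp1r2 (r = 0.958), Aida and Scmh1, and Gabarapl1 like Prelid1 (r = 0.948), Sgpp1 and Slc33a1. Atg5 was most like Rnf149 (r = 0.967), Sdc4 and Mthfs, and Atg7 like Elovl5 (r = 0.957), Litaf and D230025D16Rik. No member was among the 3 genes most like another. With the tissue means taken out, the closest pair of members was Ulk1 and Atg14 (r = 0.779), followed by Gabarapl1 and Atg14 (0.675). The lowest r was that of Ulk1 and Map1lc3a (-0.317). Differences between treatments and between libraries remain in these values, and shared regulation was not tested.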

How the data were processed

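RNA of 24 libraries per tissue and treatment was sequenced with a directional poly(A) kit. The authors quantified transcripts with kallisto against an Ensembl annotation of the mm10 build (bcl2fastq and FastQC 0.11.3 preceded it, and DESeq2 is named in the submitters' processing notes), and the deposited values are TPM per gene, from 989211 to 999188 per library. The values hold no read depth of single libraries, so no counting interval is given. No pair of libraries held identical values. The 10 genes and all lists were chosen with earlier results of these data known.

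Here, TPM of each tissue were divided by median-of-ratios size factors, and log2(TPM + 0.5) of genes averaging 1 TPM or more in the tissue was tested with limma 3.58.1 (R 4.3.3) with an intensity trend, two-sided, Benjamini-Hochberg adjusted. IH was compared with normoxia in each tissue, rhythms were fitted as cosine and sine terms of 24 h (moderated F test), and treatment by rhythm and treatment by tissue terms tested differences. The methods give 3 mice per time point and condition, and the labels do not say which libraries of different tissues came from 1 mouse. Levels by tissue were described without a test; neighbours were called apart where means ± SD did not overlap. Correlated genes were ranked by Pearson's r of log2(TPM + 0.5).

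All 10 genes were named, plus per tissue up to 3 genes of the wider list with the largest rises and falls past the threshold, and the 3 genes most like each member. Alternatives were other scalings, pseudocounts, filters, terms and tests, and left-out libraries. Choices made after seeing the data were the fits without libraries low in their own markers, the tissue comparison with the spread estimated in each tissue or with same-numbered libraries taken as 1 mouse, and the rhythm and tissue fits without the library least like the others. The main fits, the rank test, the cosine fit on TPM and the tissue fit with the spread estimated in each tissue were run on simulated data. Simulated libraries varied independently of each other. The other alternatives, such as those with further terms or left-out libraries, were not run on simulated data. Where the spread was simulated as different between tissues, the fit over tissues called too many genes, and the alternative with the spread estimated in each tissue fewer, though still more than its threshold allows. Positions and shared 31-base words are from GENCODE M21 (GRCm38), and promoter sequences from RefSeq (GRCm38.p6). Python 3.11.15 was used. Protein sequences were not used here.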

Additional observations from a re-analysis of the deposited data

Results flagged for a closer look

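The effect of IH on 24-hour mean expression differed between tissues, by the moderated F test of limma over the libraries of all 6 tissues, for each of the 10 genes. Adjusted p-values were 2.99e-07 for Ulk1, 0.00457 for Becn1, 4.71e-10 for Sqstm1, 4.73e-08 for Map1lc3a, 1.06e-06 for Map1lc3b, 4.33e-06 for Gabarapl1, 2.51e-08 for Atg5, 2.61e-12 for Atg7, 0.00437 for Atg14 and 5.98e-10 for Tfeb. The same test passed for 80.5% of all genes. The number of genes detected moved with treatment in lung and heart, and with it as a term Map1lc3a, Gabarapl1 and Atg14 no longer passed. In TPM as deposited Atg5 no longer passed (0.0785).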

How the results depend on the processing

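In TPM as deposited, members rose and fell as 4 and 1 in lung, 0 and 3 in liver, 0 and 0 in kidney and 2 and 0 in muscle, and rhythmic members numbered 2 in normoxic liver, 0 in liver after IH, 1 in normoxic kidney, 0 in kidney after IH and 0 in normoxic muscle. With the number of detected genes as a term, 1 member fell in lung, 4 rose and 0 fell in kidney, 0 rose in heart and 1 fell in cerebellum. Signs turned in lung in TPM as deposited for Atg14 (0.28) and Map1lc3b (0.0743), and with that term for Atg14 (0.18), Gabarapl1 (0.15), Map1lc3b (0.15) and Sqstm1 (0.12), and within replicate 3 for Map1lc3b in liver (-0.12). The cause was not tested. Over the main fit and its alternatives, all genes called ran from 8103 to 18754 in lung and from 110 to 4637 in liver. They ran from 1009 to 3107 in kidney, 338 to 1946 in muscle, 257 to 13030 in heart and 48 to 5289 in cerebellum. Rhythmic genes ran from 781 to 3543 in normoxic liver, 647 to 3277 in normoxic kidney and 47 to 1502 in normoxic muscle. The member counts here and below therefore do not by themselves set the members apart from other genes.

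Without a filter, no member rose in liver, none fell in kidney and 1 was rhythmic in normoxic muscle, which adjusts over more genes; with genes averaging 5 TPM or more, 1 was rhythmic there (Atg14 is no longer tested). The rank test and the cosine fit on TPM each called 3 members in normoxic liver, 0 and 1 in normoxic kidney, 0 in kidney after IH and 0 in normoxic muscle. Without the library least like the others, 2 rose in liver (this is the IH library of replicate 2 at 13:30), 0 fell in kidney and 1 was rhythmic in lung after IH. Without libraries low in their own markers, 1 rose in lung, 2 rose in liver and 2 were rhythmic in lung after IH.

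Leaving out each replicate number in turn gave 1 to 1 members that rose in lung (without replicates 1, 2 and 3 alike); 0 to 1 that rose and 0 to 4 that fell in liver; 0 to 2 that rose and 0 to 1 that fell in kidney; 0 to 3 that fell in muscle; and 0 to 4 that rose and 0 to 1 that fell in cerebellum. Rhythmic members numbered 1 to 2 in normoxic lung, 1 to 4 in normoxic liver, 0 to 1 in liver after IH, 0 to 1 in normoxic kidney, 0 in kidney after IH and 0 to 1 in normoxic muscle. Members whose IH effect differed between tissues numbered 8 to 10.

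Same-numbered libraries deviated together (r over 0.1) in 54 of 144 pairs (median r = 0.0318), short of every pair, so the numbers were not taken to pair the samples; in liver 16 of 24 pairs did (median r = 0.224). With a replicate block, 4 members fell in liver, 1 fell in kidney and 2 were rhythmic in liver after IH. Other counts stayed within 1.5 times. Counted over all members and alternatives, the call on a single difference was lost 52 times and gained 23 times, and that on a rhythm was lost 69 times. Depth of single libraries is not in the values, so precision is read from their scatter alone.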
